A study of Mus musculus with 12 samples.

Results

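The precursor mmu-mir-126a gives the endothelial microRNAs miR-126a-3p and miR-126a-5p, and it is described here across 12 small RNA libraries of mouse retina. Its reads were all sequences that the deposited tables assign to this precursor, each counted once. They came to 98066 reads of 409 distinct sequences, for 1 of the 997 annotated precursors seen and of 1532 when precursors predicted by the submitters are included. The libraries were 6 called model and 6 given Keluoxin, a Chinese herbal capsule used against complications of diabetes. All 12 carried the db/db genotype, a loss of the leptin receptor that leads to obesity and diabetes, on a KsJ background, so both groups are diabetic and no non-diabetic mice were analysed here. The labels give no age, sex, dose or length of treatment, and they name the retina as the tissue while the protocol for the RNA mentions exosomes. Whether each library is its own animal is not stated, so every p-value measures the spread between these samples, and that spread can be technical.

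Endothelial cells line blood vessels, and miR-126 is the microRNA best known for marking them. Its precursor sits inside Egfl7, a gene for a secreted protein of the vessel wall, and is made with the transcript of that gene. The 3p arm represses Spred1 and Pik3r2, which dampen signalling downstream of VEGF, and Vcam1, an adhesion molecule for leukocytes. The 5p arm represses Dlk1 in endothelial cells. In the diabetic retina, vessel leakage and the growth of new vessels are the hallmarks of retinopathy. A microRNA hairpin is cut into 2 arms, one of which is usually kept in Argonaute as the guide, and bases 2 to 8 of that arm, the seed, pair with target mRNAs.

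The hairpin of 73 bases lies at chr2:26591357-26591429 on the plus strand (RefSeq sequence, build GRCm38.p6; the build behind the deposited tables is not given in the sources used here). In the GENCODE annotation of that assembly it falls in an intron of 8 Egfl7 transcripts, 7 of them protein coding, and in exon 4 of the non-coding retained-intron transcript Egfl7-206. It also lies in an intron of Gm20532-201 on the same strand. Bases are numbered from the first base of this hairpin. Capitals mark the stretch from the leading 5p start at base 9 to the leading 5p end at base 29, and the RefSeq 3p arm at bases 46 to 67.
mmu-mir-126a hairpin: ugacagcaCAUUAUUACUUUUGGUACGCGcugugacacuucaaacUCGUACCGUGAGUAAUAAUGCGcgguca
In the predicted fold of lowest energy (RNAfold, −31.2 kcal/mol) the arms share 18 base pairs and 10 bases of the loop between them are unpaired. The 3p arm runs 2 bases past the partner of the 5p start, the overhang left by Drosha.

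The reads that carry the results below differ at their ends, and they are shown with the seed in capitals. The first 3p read equals the RefSeq mature arm. The read ending at base 67 held 35.3% of all 3p reads, that ending at base 66 held 29.97%, and that ending at base 65 held 12.6%. Starting 1 base later changes the seed, as does starting 1 base earlier.
mmu-miR-126a-3p, bases 46 to 67: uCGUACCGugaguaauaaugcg
3p read, bases 46 to 66: uCGUACCGugaguaauaaugc
3p read, bases 46 to 65: uCGUACCGugaguaauaaug
3p read, bases 47 to 66: cGUACCGUgaguaauaaugc
3p read, bases 47 to 67: cGUACCGUgaguaauaaugcg
3p read, bases 45 to 67: cUCGUACCgugaguaauaaugcg
3p read, bases 46 to 68: uCGUACCGugaguaauaaugcgc
3p read, bases 47 to 68: cGUACCGUgaguaauaaugcgc
5p read, bases 9 to 29: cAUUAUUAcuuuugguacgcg
5p read, bases 9 to 28: cAUUAUUAcuuuugguacgc
5p read, bases 9 to 30: cAUUAUUAcuuuugguacgcgc
5p read, bases 9 to 27: cAUUAUUAcuuuugguacg
Of 1679 mature mouse names in the RefSeq table, only mmu-miR-126a-3p has the seed CGUACCG. The seeds GUACCGU and UCGUACC of the shifted 3p reads were each found in 0 of them.

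Depth differed between libraries, and so does the precision. They held 1933375 (Keluoxin replicate 5) to 7892147 reads (model replicate 3), and 2678 to 14760 of mir-126a. No library was a copy of another. Keluoxin replicate 4 stood apart in its make-up: its photoreceptor microRNAs summed to 188200 CPM (read counts scaled to library size), against 274500 to 418400 in the other 11 libraries. Its muscle microRNAs summed to 1908 CPM, against 286.0 to 426.6. The antisense precursor mir-126b is annotated over bases 7 to 64 of the hairpin on the other strand and had 0 reads of its own in the tables. All 5p reads and 1.81% of the 3p reads lie inside that stretch. The tables mark all 13590 reads inside it as repeated, against 33 of the 84476 outside. Of the mir-126a sequences, 0 are listed under another precursor and 0 have a count that differs from their undivided read number. Whether the mark bears on the 5p counts was not tested.

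The 3p arm was lower in the Keluoxin libraries and the 5p arm was not. In the 6 model libraries, in the order of their replicate numbers, miR-126a-3p stood at 1432, 1736, 1742, 1507, 1921 and 1568 CPM. The 6 Keluoxin libraries held 1184, 1109, 933.7, 1022, 1225 and 909.5 CPM. The groups did not overlap, and the highest Keluoxin value lay below the lowest model value. How often other arms, precursors or isoforms were apart in this way is not given here. The level fell from 1651 ± 181 to 1064 ± 130 CPM (SD, n = 6 each), a log2 fold change of −0.63 with a standard error of 0.11 (quasi-likelihood test of edgeR, adjusted p = 0.00516 by Benjamini-Hochberg over all arms tested). In this test 17.3% of the 811 arms passed, and miR-126a-3p had the 10th smallest p of all and the 4th smallest of the 511 annotated arms. Over all arms 75 were higher and 65 lower, and among the annotated arms 21 were higher and 49 lower. These splits moved with the fit: all arms gave 89 higher and 26 lower when scaled to total reads and 72 higher and 110 lower with the upper quartile, and a fit of annotated precursors alone gave 38 higher and 37 lower.

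By mean level miR-126a-3p ranked 60th of the 811 arms and miR-126a-5p 196th. miR-126a-5p stood at 164.7, 131.6, 230.5, 156.3, 201.0 and 145.8 CPM in the model libraries. The Keluoxin libraries held 227.5, 266.3, 184.9, 189.8, 190.2 and 189.7 CPM. These ranges overlap, since model replicate 3 lay above 5 of the 6 Keluoxin libraries and model replicate 5 above 4. The means were 171.7 ± 37.1 and 208.1 ± 32.6 CPM (SD, n = 6 each). The difference of 0.28 on the log2 scale, with a standard error of 0.16, did not pass (edgeR adjusted p = 0.216). With upper quartile scaling it was −0.01 and scaled to total reads 0.46 (edgeR adjusted p = 0.985 and 0.0640). Both arms together came to 1823 ± 201 CPM in model and 1272 ± 147 CPM in Keluoxin, again without overlap.

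The median log2 fold change over all arms was 0.03, and other scalings put it at −0.23 (upper quartile) and 0.22 (total reads). Relative to that median, miR-126a-3p stood at −0.67 under the main scaling, −0.68 under the upper quartile and −0.67 under total reads. The 5p arm stood at 0.24, 0.22 and 0.24. The gap between the arms hardly moved with these scalings, which cancel in a comparison of both arms within a library. A change of scaling moves all arms nearly alike, so the agreement relative to the median is built in. With no filter on low counts the median was 0.25, and relative to it the 3p arm stood at −0.95 and the 5p arm at −0.03.

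**Figure D1:**
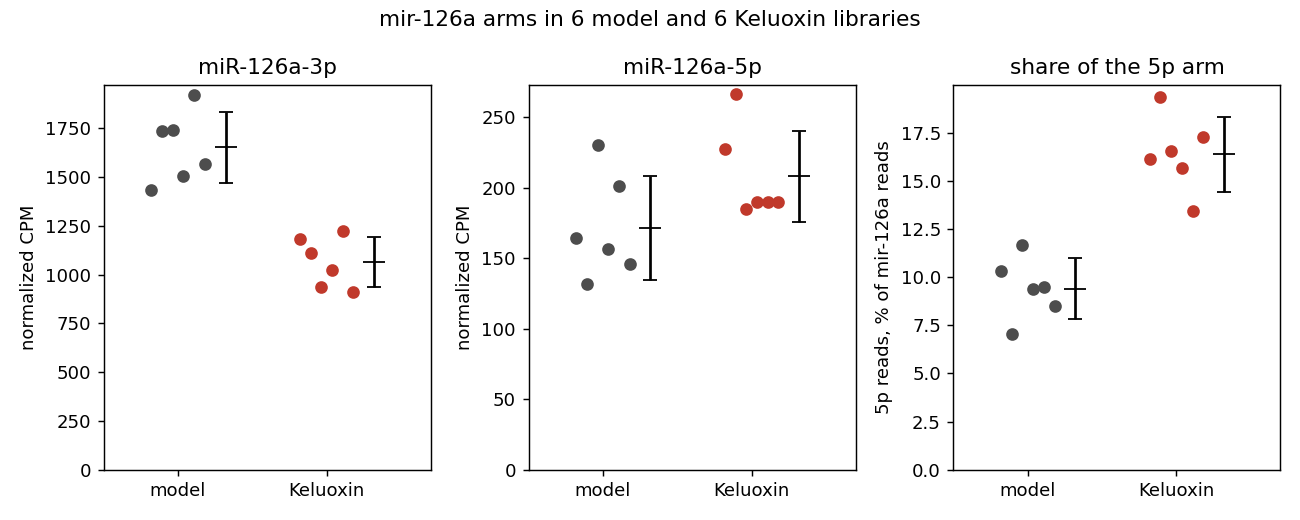
Levels of both arms in normalized CPM and the share of the 5p arm in percent of mir-126a reads, for 6 model and 6 Keluoxin libraries. Points are libraries and bars give the mean with SD; the groups are apart for miR-126a-3p and for the share, and overlap for miR-126a-5p.

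The balance between the arms shifted toward 5p. The share of mir-126a reads on the 5p arm was 10.3%, 7.05%, 11.7%, 9.40%, 9.47% and 8.51% in the model libraries. In the Keluoxin libraries it was 16.1%, 19.4%, 16.5%, 15.7%, 13.4% and 17.3%. Every Keluoxin library lay above every model library, and the nearest pair, 11.7% in model replicate 3 and 13.4% in Keluoxin replicate 5, had Wilson 95% intervals of 11.2% to 12.2% and 12.2% to 14.8%. These intervals cover counting error only. The share rose from 9.41% ± 1.58 to 16.4% ± 1.95 (SD, n = 6 each; exact two-sided permutation test, p = 0.00216, the smallest that 6 against 6 can give). Put as a ratio, the model libraries had 9.90 ± 1.93 reads of 3p for each read of 5p, and the Keluoxin libraries 5.17 ± 0.75.

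Tested across precursors on the log2 scale, the 5p to 3p ratio of mir-126a was −3.28 ± 0.27 in model and −2.36 ± 0.21 in Keluoxin. The difference was 0.93 with a standard error of 0.17 (limma, adjusted p = 0.00372 over 190 precursors). Of these 190, 10.5% passed, 9 toward 5p and 11 toward 3p, and the median difference of all was 0.05. mir-126a had the 5th smallest p and the 37th largest difference in either direction. Precursor copies with reads in common each count as 1 of the 190. The other called annotated precursors that shifted toward 5p included mir-582, mir-770, mir-345 and mir-378a, and those toward 3p included mir-369, mir-99a and mir-744; they were picked from the 18 called after their values were seen.

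The shift stood at the leading starts as well. Counting only 3p reads that begin at base 46 and 5p reads that begin at base 9, the difference was 0.95 (exact permutation test, p = 0.00216). With every library thinned to 1933375 reads the 5p share was 9.38% ± 1.75 in model and 16.3% ± 2.42 in Keluoxin (exact permutation test, p = 0.00216). Both were run after the data were seen. With reads that match the precursor in every base the difference was 0.81 (limma, adjusted p = 0.00906).

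**Figure D2:**
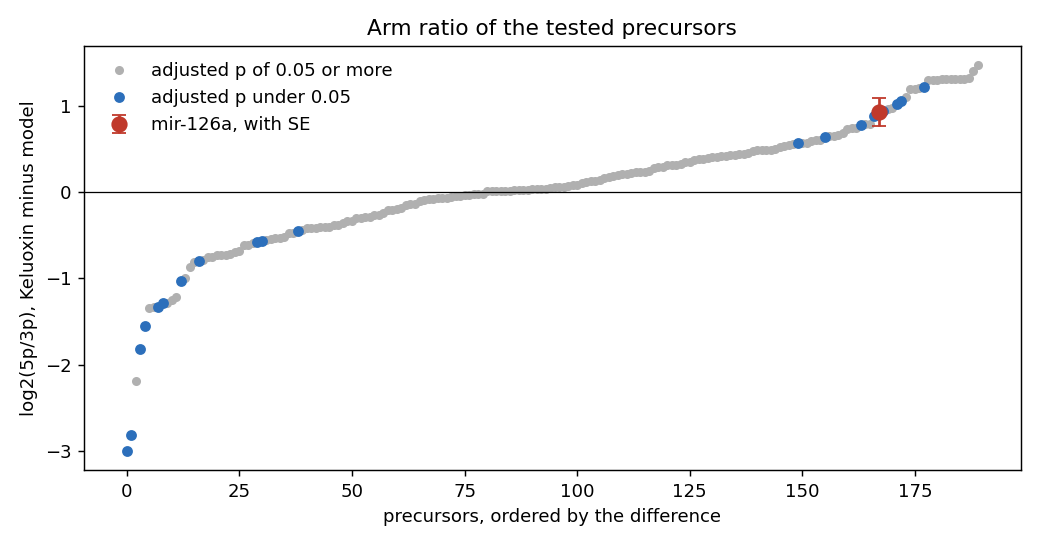
Difference in log2(5p/3p) between Keluoxin and model for the 190 tested precursors, ordered by that difference. mir-126a, with its standard error, lies at 0.93; blue points have an adjusted p under 0.05 and fall on both sides of 0.

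Reads of the 3p arm ended at several bases, and isoforms, taken as reads with the same start and end that either match the precursor in every base or differ, did not all move the same way. Of 69 isoforms of mir-126a seen, 25 had enough reads to be tested and 12 passed (edgeR, adjusted over 5653 isoforms of all arms). Of all 5653, 24.5% passed, 715 higher and 668 lower, with a median log2 fold change of −0.02. Of the 13 tested 3p isoforms that match in every base, 8 fell and 2 rose, with a median of −0.57. None of the 5 with a differing base passed. Of the 7 tested 5p isoforms, 2 rose and none fell. The 5653 include isoforms with a differing base, so they are an unlike background for the 13. Isoforms of all arms that match in every base had medians of −0.66 when ending in G and −0.56 in A. Those ending in C had −0.24 and those ending in U −0.0006.

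The RefSeq form, bases 46 to 67, ranged from 484.4 to 793.6 CPM in model (median 579.2) and from 264.7 to 428.6 in Keluoxin (median 369.7). The groups did not overlap, and it fell by 0.79 on the log2 scale (SE 0.16, edgeR adjusted p = 0.00693). The form that ends 1 base earlier, bases 46 to 66, ranged from 415.7 to 585.2 CPM in model (median 494.9) and from 266.7 to 378.2 in Keluoxin (median 339.1). It fell by 0.57 (SE 0.13, adjusted p = 0.0115), a call lost when libraries were scaled to total reads (−0.37, adjusted p = 0.117). The form ending at base 65 went from 205.9 to 268.3 CPM (median 221.8) to 94.20 to 132.6 (median 123.3), and fell by 0.95 (SE 0.13, adjusted p = 0.00172). These are the leading 3 forms, and none overlapped between the groups, though the share of all isoforms without overlap is not given here.

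Forms with a shifted start carry another seed. That at bases 47 to 66 averaged 66.5 ± 16.2 CPM in model and 44.9 ± 10.6 CPM in Keluoxin, a difference of −0.57 that did not pass (edgeR, adjusted p = 0.0558). Those at bases 47 to 67 and 45 to 67, named after their values were seen, fell by 0.53 and 0.68 (edgeR, adjusted p = 0.0405 and 0.0422). Leaving out 1 library ended the first call in 9 of 12 fits and the second in 8; the first stood without model replicate 1, Keluoxin replicate 2 or 5, and the second without model replicate 1 or 6, or Keluoxin replicate 2 or 5. Scaling to total reads ended both (edgeR, adjusted p = 0.150 and 0.106), and RLE scaling the second (adjusted p = 0.0501). The remaining pair among the 6 3p isoforms with the most reads has a differing base. At bases 46 to 66 this kind averaged 43.7 ± 5.6 and 38.9 ± 10.4 CPM (−0.17, adjusted p = 0.539), and at bases 46 to 67 it averaged 45.8 ± 9.7 and 32.04 ± 8.4 CPM (−0.51, adjusted p = 0.0911).

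The 2 forms that rose both end at base 68, 1 base past the RefSeq end. At bases 47 to 68 the level ranged from 8.72 to 12.2 CPM in model (median 9.30) and from 13.6 to 21.5 in Keluoxin (median 18.4). It rose by 0.85 (SE 0.18, edgeR adjusted p = 0.00730), with no overlap. At bases 46 to 68 the level ranged from 7.26 to 12.6 CPM in model (median 7.83) and from 10.4 to 19.4 in Keluoxin (median 16.2). It rose by 0.85 as well (SE 0.21, adjusted p = 0.0150), with some overlap. Both are named here after their values were seen.

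On the 5p arm the leading form, bases 9 to 30 with a differing base, averaged 54.4 ± 11.9 CPM in model and 59.4 ± 11.3 CPM in Keluoxin (0.13, adjusted p = 0.636 with edgeR). Bases 9 to 29 without one stood at 45.1 ± 11.7 and 41.3 ± 8.7 CPM (−0.13, adjusted p = 0.665). The same stretch with a differing base rose from 25.9 ± 5.8 to 41.2 ± 6.9 CPM (0.67, SE 0.19, adjusted p = 0.0229). This call was lost without model replicate 4, Keluoxin replicate 1 or Keluoxin replicate 2 (adjusted p = 0.0575, 0.0510 and 0.0794). Bases 9 to 28 with a differing base stood at 18.7 ± 6.5 and 26.6 ± 5.6 CPM (0.51, adjusted p = 0.134). The form at bases 9 to 30 that matches in every base, named after its values were seen, rose from 5.56 ± 1.11 to 10.3 ± 2.07 CPM (0.88, SE 0.22, adjusted p = 0.0141).

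The last base of the isoform moved with the size of the change over all arms of the series, which was looked at after the data were seen. Of 579 tested isoforms of all arms that match in every base and end in G, 213 were lower and 20 higher, with a median log2 fold change of −0.66. For those ending in A the median was −0.56, for those ending in C −0.24 and for those ending in U 0.00. The 3p forms ending at bases 65 and 67 end in G, and those ending at 66 and 68 end in C. Reads ending at base 67 made up 41.7% of the 3p arm and those ending at base 65 made up 16.1%. The arm level and the arm ratio count reads with and without a differing base together. With only reads that match in every base miR-126a-3p had a log2 fold change of −0.43 (edgeR adjusted p = 0.0153). The part of this pattern in the isoform results, in the arm level and in the arm ratio was not tested.

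**Figure D3:**
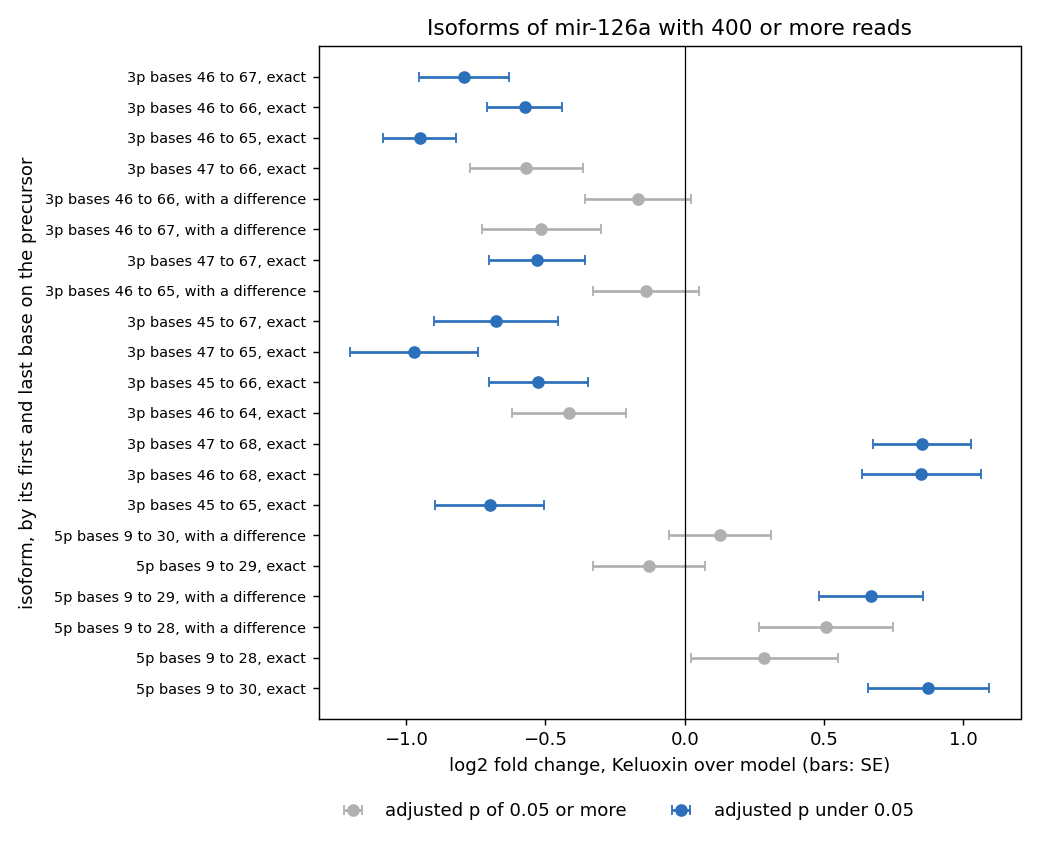
Log2 fold change, Keluoxin over model, with its standard error, for isoforms of mir-126a with at least 400 reads over all libraries. Most 3p isoforms lie below 0, the pair that ends at base 68 lies at 0.85, and no 5p isoform that passed lies below 0.

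Starts were held more closely than ends. On the 5p arm 99.8% of reads in each group began at base 9 (model 99.75% ± 0.29, Keluoxin 99.79% ± 0.28, SD, n = 6 each). On the 3p arm 88.3% ± 0.74 in model and 86.7% ± 1.64 in Keluoxin began at base 46. The 3p share ranged from 86.9% to 89.1% in model and from 84.2% to 88.4% in Keluoxin. The groups overlap, and the difference did not pass across arms (limma, adjusted p = 0.414 for 3p and 0.983 for 5p), where 3.93% of 382 arms passed. Taken alone, the 3p share gave p = 0.0498 in an exact permutation test, which became 0.202 adjusted over 10 measures of both arms. Most other 3p reads began at base 47, which took 8.28% ± 0.88 in model and 9.686% ± 1.504 in Keluoxin, or at base 45, with 3.42% ± 0.31 and 3.60% ± 0.43.

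In the fold, the first base of the 3p arm is unpaired, and 4 of its first 5 bases are paired, 2 of them in GC pairs. All 5 first bases of the 5p arm are paired, 1 of them in a GC pair. These are properties of the predicted fold, and they were not set against the groups.

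Mean read length did not pass for either arm. It was 21.20 ± 0.05 nt in model and 21.22 ± 0.10 in Keluoxin for 3p (limma, adjusted p = 0.811), and 21.12 ± 0.07 and 21.08 ± 0.10 for 5p (adjusted p = 0.618), while 8.12% of arms passed. Without Keluoxin replicate 4 the 3p difference of 0.021 nt was 0.054 nt, and the 5p difference of −0.044 nt was −0.0038 nt. The share of reads at the leading 3′ end also missed the threshold. It was 42.9% ± 3.4 and 39.9% ± 6.1 at base 67 for 3p (limma, adjusted p = 0.370), and 41.0% ± 2.3 and 39.4% ± 1.6 at base 29 for 5p (adjusted p = 0.349). This measure passed in 41.6% of arms. Without Keluoxin replicate 4, the 3p difference of −0.19 on the log2 odds scale was −0.075.

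Reads with the longest ends took more of each arm in Keluoxin. The share of 3p reads ending at base 68 was 1.60%, 0.92%, 1.17%, 1.10%, 1.02% and 1.09% in the model libraries. In the Keluoxin libraries it was 3.30%, 2.62%, 3.53%, 2.80%, 3.32% and 4.18%. The groups did not overlap, and the share rose from 1.15% ± 0.24 to 3.29% ± 0.56 (SD, n = 6 each; adjusted p = 0.0260 over 24 starts, ends and lengths of both arms, exact permutation test). On the 5p arm the share ending at base 31 rose to 1.56% ± 0.48 from 0.84% ± 0.20 (adjusted p = 0.0260, exact permutation test), with model replicate 6 at 1.18% just above Keluoxin replicate 4 at 1.12%. Of the 142 5p reads ending there, 20 were the form at bases 9 to 31 that matches in every base. Reads with a differing last base, which may be shorter reads with an added base, are counted in these shares. Shares over all arms are not given for these ends. The share of 3p reads ending at base 65 stood at 17.0% ± 0.75 and 14.6% ± 1.71 (exact permutation test, adjusted p = 0.0936).

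**Figure D4:**
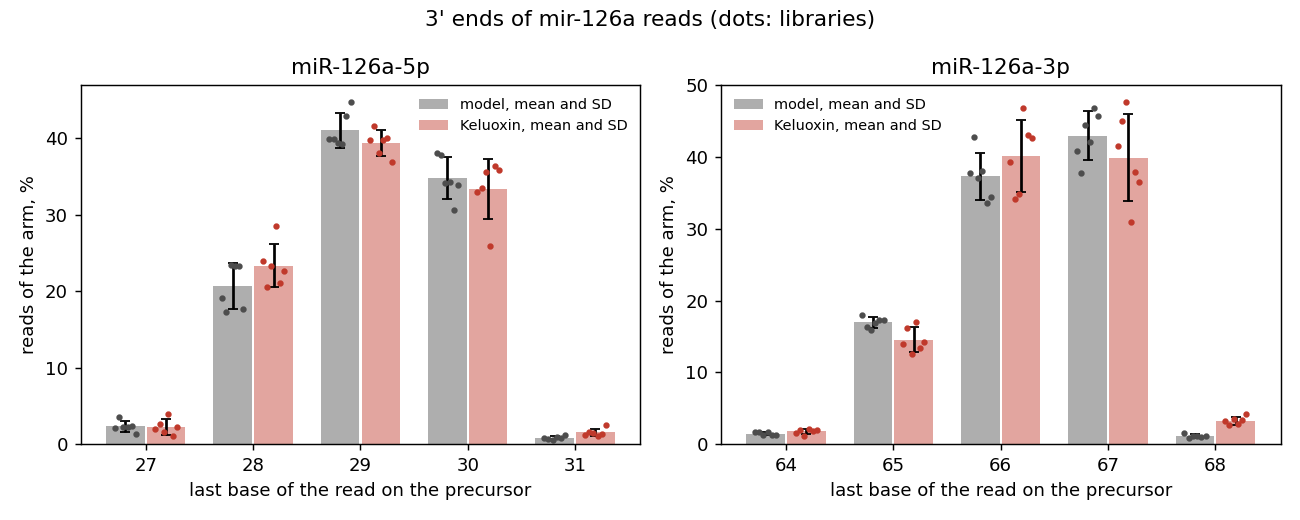
Share of reads of each arm, in percent, that end at each base of the precursor, with dots for libraries and bars for the group mean and SD. Most reads end at bases 28 to 30 (5p) and 65 to 67 (3p), and the rare 3p end at base 68 is higher in all Keluoxin libraries, 2.62% to 4.18% against 0.92% to 1.60%.

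The arms differ sharply in how often their last bases depart from the precursor, which is where enzymes add bases to a finished microRNA. Reads with a difference only in the last 3 bases made up 57.2% ± 4.3 of 5p reads in model and 1.05% ± 0.36 of 3p reads. Over the 382 arms the median was 31.5%, and by this share miR-126a-5p was 28th from the top and miR-126a-3p 30th from the bottom. The tables hold at most 1 differing, inserted or deleted base for each read, so reads with more are not counted here, and a differing last base cannot be told from a base added to a shorter read.

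The 5p differences were mostly a U or an A at the very end. These are the most frequent of them, with the differing base in capitals.
5p read, 2175 reads: cauuauuacuuuugguacgcgU
5p read, 1157 reads: cauuauuacuuuugguacgcA
5p read, 957 reads: cauuauuacuuuugguacgcgA
5p read, 872 reads: cauuauuacuuuugguacgU
5p read, 370 reads: cauuauuacuuuugguacgcU
5p read, 329 reads: cauuauuacuuuugguacgA
5p read, 323 reads: cauuauuacuuuugguacgcgG
The first alone held 18.1% of all 5p reads, nearly as many as the leading form without a difference, with 22.6%. In model, 29.9% ± 4.0 of 5p reads ended in a differing U and 21.2% ± 1.7 in a differing A, and in Keluoxin 28.0% ± 2.7 and 20.3% ± 1.6 (exact permutation tests, adjusted p = 0.432 each over 10 letters and arms). A differing G at the end rose from 2.32% ± 0.70 in model to 4.61% ± 1.28 in Keluoxin (adjusted p = 0.0216, exact permutation test), with no overlap. The letters were looked at after the data were seen, and shares over all arms are not given for them.

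In Keluoxin, differences in the last 3 bases of the 3p arm were more frequent. They took 1.17%, 1.02%, 0.73%, 0.77%, 0.92% and 1.71% of 3p reads in the model libraries. In the Keluoxin libraries they took 1.77%, 2.09%, 2.17%, 3.12%, 3.24% and 2.65%. The groups did not overlap, though model replicate 6 came close to Keluoxin replicate 1. The share rose to 2.51% ± 0.59, a difference of 1.30 on the log2 odds scale with a standard error of 0.22 (limma, adjusted p = 0.000791). This is read against a background in which 62% of arms passed, 224 higher and 13 lower, and in which the median share rose from 31.5% to 39.6%. By the size of the difference miR-126a-3p was 22nd of 382. For the 5p arm the share was 61.5% ± 2.6 in Keluoxin and the difference, 0.25, did not pass (limma, adjusted p = 0.0926).

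Split by place, the shares that rose were those before the last base. At the last base itself 54.6% ± 4.2 of 5p reads differed in model and 55.0% ± 2.7 in Keluoxin, and 0.32% ± 0.11 and 0.40% ± 0.09 of 3p reads (exact permutation tests, adjusted p = 0.857 and 0.208 over 6). At the second to last base the share rose from 2.34% ± 0.84 to 5.82% ± 1.09 for 5p and from 0.27% ± 0.08 to 0.88% ± 0.13 for 3p (exact permutation tests, adjusted p = 0.00648 each), with no overlap in either arm. At the third to last base it rose from 0.46% ± 0.23 to 1.22% ± 0.46 on the 3p arm (adjusted p = 0.0130, exact permutation test) and stood at 0.30% ± 0.35 and 0.69% ± 0.48 for 5p (adjusted p = 0.208, exact permutation test). These places were looked at after the data were seen, and how often other arms rose or were apart at them is not given here. For the last 3 bases together 62% of arms passed, 224 higher and 13 lower.

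**Figure D5:**
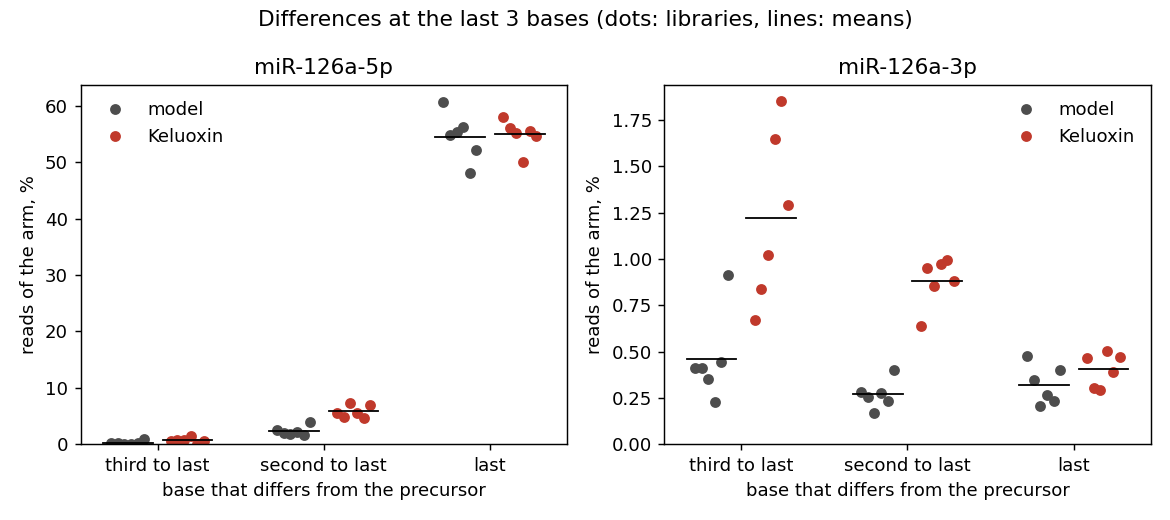
Share of reads, in percent of the arm, whose single differing base is the third to last, second to last or last, with dots for libraries and lines for means. The last base differs in about the same share in both groups on each arm, while the second to last is higher in all Keluoxin libraries, 0.64% to 0.99% against 0.17% to 0.40% on 3p.

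A single base of the 3p arm can be followed through reads of different lengths. Base 19 of the arm, counted from the leading start, is a T in the tables, and its changes are T19C, T19G and T19A. In reads of 20 nt, where it is second to last, 1.65% ± 0.44 differed there in model and 5.55% ± 0.57 in Keluoxin (exact permutation test, adjusted p = 0.00648 over 3). In reads of 21 nt it was 1.00% ± 0.59 and 2.60% ± 0.88, and in reads of 22 nt 0.49% ± 0.19 and 1.22% ± 0.43 (exact permutation tests, adjusted p = 0.00649 each). The means of both groups were lower the farther the base lay from the end, though model replicate 2 held 0.73% at 21 nt and 0.85% at 22 nt; this order was not tested. The groups were apart at 20 nt and overlapped at 21 and 22 nt, where Keluoxin replicate 1 held 1.51% and 0.67%. The base was chosen after the data were seen, and no share over all arms is given for it.

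Away from the last 3 bases the arms did not pass. Differences elsewhere were found in 6.19% ± 0.38 of 3p reads in model and 6.96% ± 1.49 in Keluoxin (limma, adjusted p = 0.724), and in 1.34% ± 0.58 and 1.24% ± 0.62 of 5p reads (adjusted p = 0.881). Of all arms 5.5% passed. The most frequent such change of the 3p arm was T1A, in 0.78% ± 0.12 and 0.87% ± 0.13 of reads that begin at base 46, followed by C7A with 0.44% ± 0.03 and 0.43% ± 0.19, and A11G with 0.35% ± 0.12 and 0.32% ± 0.11. The changes C7A and A11G lie inside and after the seed, and the ranges of both shares overlapped between the groups.

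Other microRNAs known from endothelial cells were read beside miR-126a-3p, in a list that holds mir-126a itself. The calls, the median and the sum below include its arms. Of 14 precursors listed as endothelial, 13 were seen and 18 arms tested: 2 fell, miR-126a-3p and miR-24-1-5p, and miR-27a-3p rose. The median log2 fold change of the list was −0.12, beside 0.03 for all arms tested, and 3 of 18 calls is close to the 17.3% called over all arms. The most abundant, miR-27b-3p, which is made in the same cluster as miR-23b and miR-24-1 and promotes vessel sprouting, had 9212 ± 296 CPM in model and 7959 ± 856 CPM in Keluoxin (−0.21, adjusted p = 0.0840 with edgeR). miR-27a-3p rose from 647.6 ± 80.2 to 858.8 ± 86.7 CPM (0.41, SE 0.11, adjusted p = 0.0228), a call lost with upper quartile scaling (0.16, adjusted p = 0.438), with no filter on low counts (0.34, adjusted p = 0.161) and without model replicate 3, model replicate 4 or Keluoxin replicate 3 (adjusted p = 0.0575, 0.0648 and 0.0547). miR-24-1-5p fell from 16.2 ± 3.3 to 10.7 ± 2.0 CPM (−0.60, SE 0.19, adjusted p = 0.0472), and this call was lost in 9 of 12 fits with 1 library left out; it stood without model replicate 1, Keluoxin replicate 2 or Keluoxin replicate 3. It was also lost in 5 of 10 other fits, among them total-read scaling, exact reads only, no filter on low counts and annotated precursors only (adjusted p = 0.119, 0.118, 0.134 and 0.0661). The summed level of the list, with both arms of mir-126a in it, was 13510 to 14670 CPM in model and 10650 to 13850 in Keluoxin. Keluoxin replicate 2 lay inside the model range and the other 5 below it. In bulk samples fewer endothelial cells and less of the microRNA in each cell cannot be told apart.

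Of 25 tested arms of microRNAs tied to angiogenesis and VEGF, 1 rose and 1 fell, beside 17.3% called over all arms, with a median log2 fold change of −0.05. miR-378a-3p, hosted in Ppargc1b, fell from 2391 ± 490 to 1426 ± 188 CPM (−0.75, SE 0.14, edgeR adjusted p = 0.00800). miR-16-2-3p rose from 2.69 ± 1.13 to 6.44 ± 2.71 CPM (1.27, SE 0.37, adjusted p = 0.0343), a call lost in 8 of 12 fits with 1 library left out that stood without model replicate 1 or 2, or Keluoxin replicate 2 or 5. It was also lost with upper quartile scaling, no filter on low counts and exact reads only (adjusted p = 0.0621, 0.104 and 0.147). The most abundant, miR-21a-5p, which is induced in many injured tissues, stood at 7043 ± 519 and 6790 ± 983 CPM (adjusted p = 0.721). miR-210-3p, the microRNA most closely tied to hypoxia, stood at 2119 ± 492 and 2089 ± 184 CPM (adjusted p = 0.921).

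Markers of other cells moved with some Keluoxin libraries. Their calls stand beside the 17.3% of all arms, and 1 of 3 erythroid arms rose. The erythroid arms summed to 84.7 to 104.7 CPM in model and to 81.9, 126.2, 577.7, 419.2, 786.6 and 231.9 CPM in Keluoxin replicates 1 to 6. In the same order of Keluoxin replicates, miR-126a-3p stood at 1184, 1109, 933.7, 1022, 1225 and 909.5 CPM. The 5p share was 16.1%, 19.4%, 16.5%, 15.7%, 13.4% and 17.3%, and its relation to the erythroid sums was not tested. The arms of mural cells, which wrap the vessels, summed to 2482 to 4183 CPM in model and 3255 to 6993 in Keluoxin, and 0 of 4 passed. The leukocyte and platelet arms summed to 68.3 to 83.9 and 68.5 to 84.7 CPM. The photoreceptor arms summed to 354300 to 418400 CPM in model and 188200 to 380100 in Keluoxin, where 2 of 6 fell, and the neuronal arms to 112500 to 128900 and 87000 to 119700. The muscle arms summed to 297.8 to 426.6 and 286.0 to 1908 CPM, where 1 of 4 rose, and those of pigment epithelium and ciliary body to 9446 to 12130 and 10380 to 12170. Without Keluoxin replicate 4, which held the lowest photoreceptor and the highest muscle and mural sums, the log2 fold change of miR-126a-3p was −0.62 (edgeR adjusted p = 0.00934) and the arm ratio difference 0.94 (limma, adjusted p = 0.00622). The part of the other cell types in these results was not tested.

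The arms whose levels followed miR-126a-3p most closely over the 12 libraries were not its own partner. By Pearson's r of log2 CPM they were miR-375-3p (0.92), miR-744-5p (0.90), miR-330-5p (0.89), miR-379-5p (0.88) and miR-872-5p (0.86), among 510 annotated arms. All 5 also fell in the same test (edgeR, adjusted p from 0.00246 to 0.0436), and the libraries share their scaling and depth, so this likeness carries the difference between the groups. miR-126a-5p had r = −0.31 and was 399th. With each group's mean taken out, the highest were miR-216a-5p (0.75), miR-124-3p (0.65), miR-122-5p (0.62), miR-6240-5p (0.61) and miR-384-5p (0.60), and miR-126a-5p had 0.43 and was 50th. By rank the 5p arm was thus more like the 3p arm than most arms were within the groups, and not across them. These correlations and ranks were not tested.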

How the data were processed

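Small RNA libraries of 12 samples, 6 model and 6 Keluoxin, were used. Per the labels' protocols, 1 µg of total RNA went into the NEBNext small RNA kit, inserts of 15 to 35 nt were selected and an Illumina NextSeq 500 was used. Novoalign, Bowtie, cutadapt and bcl2fastq were used per the submitters' processing notes, which give no version or role. The genome build is not given in the sources used here, nor is the miRBase release. The deposited counts are whole reads of distinct sequences with at least 2 reads, not normalized, per the file headers and values. The other deposited columns, lengths, positions (5 added) and differing bases, carry no normalization, per the file headers.

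The undivided read number of each sequence was counted once, on the 5p or 3p arm by the side of the precursor's middle. Levels of arms and isoforms were tested with edgeR 4.0.16 in R 4.3.3 (TMM, its filter on low counts, quasi-likelihood test, Benjamini-Hochberg at 0.05). CPM were computed on library sizes after TMM. Arm ratios, log2 of 5p plus 0.5 over 3p plus 0.5, were tested with limma 3.58.1 on precursors whose arms both held 10 or more reads in 6 libraries. Read lengths, and shares as log2 odds, were tested with limma on the 382 arms that held 50 or more reads in all libraries. For single values, a two-sided exact permutation test over the 924 assignments was used (smallest p 0.00216, SciPy 1.17.1). The edgeR tests and the arm ratio test were tried on simulated data with known changes. No shift common to most features was put in, and the outcome is not given here. RNAfold 2.7.2 gave the fold. Alternatives were other scalings and filters, DESeq2 1.42.0, reads that match in every base, reads of 18 to 26 nt, the authors' divided counts, annotated precursors only, a replicate block and leaving out each library.

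The hairpin was matched by sequence to RefSeq. The named isoforms are the 6 of the 3p and 4 of the 5p arm with the most reads; other named arms are the called and the 3 most abundant of the endothelial and angiogenesis lists and the 5 most like miR-126a-3p. Others are said to be chosen after their values were seen. The precursor, lists and tests were chosen with earlier results of these data known. Libraries held 1933375 to 7892147 reads, 62878432 in all, and without molecular identifiers intervals cover counting error only.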

Additional observations from a re-analysis of the deposited data

Results flagged for a closer look

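In 3 of 34 groups of 6 libraries looked at, 1 library lay far from the others, and chance sets apart about 1 in 20. The mean length of miR-126a-5p reads was 20.87 nt in Keluoxin replicate 4, against 21.07 to 21.16 in the other 5 Keluoxin libraries. The share of miR-126a-5p reads at the leading start was 99.22% in model replicate 6, against 99.75% to 100% in the other model libraries. It was 99.23% in Keluoxin replicate 4, against 99.82% to 100% in the other Keluoxin libraries.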

How the results depend on the processing

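The fall of miR-126a-3p kept its direction and passed in all 22 alternatives run (log2 fold change −0.91 to −0.43, edgeR or DESeq2 adjusted p of at most 0.0251; −0.69 to −0.59 with 1 library left out). The arm ratio did so in all 19 (0.81 to 1.00, adjusted p of at most 0.0330), and the 3p share with differences in the last 3 bases in all 17. The 5p level ran from −0.0059 with upper quartile scaling to 0.46 with total-read scaling over its 22 alternatives. Its lowest adjusted p was 0.0615, with annotated precursors only (edgeR). The number of called arms, 140, was 237 with DESeq2, 75 with annotated precursors only and 72 to 245 with 1 library left out (model replicate 1 gave 245 when left out, model replicate 3 gave 86 and model replicate 4 gave 72). Called isoforms of mir-126a were 7 with total-read scaling, against 12, and 8 to 15 with 1 library left out; called isoforms of all arms were 866 to 1921, lowest without Keluoxin replicate 6. The 3p share at the leading start passed alone in the exact permutation test (−1.61 percentage points, p = 0.0498) and after thinning, chosen after seeing the data (−1.85, p = 0.0325). The other named arms and the single isoforms were put through the same alternatives after seeing the data. miR-21a-5p and miR-210-3p, which were not called, turned to 0.12 and 0.16 with total-read scaling and 0.040 and 0.074 with annotated precursors only; with 1 library left out they were −0.11 to 0.0098 and −0.13 to 0.10. With 1 library left out, called arm ratios were 9 (without model replicate 5) to 27, against 20. In the same fits the 3p mean length difference was −0.0049 to 0.054 nt, and the log2 odds difference of the 5p leading start −0.40 to 0.46. That of the 5p differences elsewhere was −0.34 to 0.031, and that of the 5p differences in the last 3 bases 0.17 to 0.33, which passed without model replicate 1 (adjusted p = 0.0280) and without Keluoxin replicate 4 (adjusted p = 0.0412).

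Whether the replicate numbers in the titles pair the samples is not stated. Same-numbered deviations correlated at 0.0361 to 0.235, and 1 of 6 numbers was best matched by its own, which does not settle it. With the replicate number as a block, 12 precursors had a called arm ratio, 132 arms a called level, and 8 isoforms of mir-126a passed; miR-126a-3p was at −0.64 (adjusted p = 0.0251) and the arm ratio at 0.93 (adjusted p = 0.0330). The block also ended the calls of miR-24-1-5p, of the 3p isoform at bases 47 to 67 and of the 5p isoform at bases 9 to 29 with a differing base (adjusted p = 0.0651, 0.0579 and 0.0551), and put miR-210-3p at 0.0073.

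Depth limits the rare forms most: Keluoxin replicate 5 held 360 reads of the 5p arm, and sequences seen once are not in the tables.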
